A study of Rattus norvegicus with 18 samples.

Results

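The cytosolic ribosomal protein genes encode the proteins of the ribosome, the particle that translates messenger RNA in the cytosol. They were taken from the count table by symbol: every row starting with Rpl or Rps and a digit, without the Rps6k kinases, plus Rpsa, Rplp0, Rplp1 and Rplp2. The symbols matched 87 of 17455 rows, and 82 were kept because they had 10 or more counts in 3 or more libraries. All 82 also passed the filter for testing, which kept 13338 genes in all. Of the 82, 49 carry large-subunit (Rpl) names and 33 small-subunit (Rps) names, and they lie on 19 chromosomes.

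The libraries were made from left hippocampi of Sprague-Dawley rats, adult and male, with temporal lobe epilepsy induced in 1 of 2 ways, or from shams. In the kainic acid (KA) model, systemic injections of this glutamate receptor agonist brought on status epilepticus after electrodes had been implanted. In the kindling (KI) model, the hippocampus was stimulated repeatedly through implanted electrodes until seizures were fully kindled. In both models tissue was taken 24 hours after the last seizure. The groups were KA 3 Class V (n = 3), KA sham (n = 7), KI 3 Class V (n = 4) and KI sham (n = 4). The labels explain neither the name 3 Class V nor what the shams received and do not give an animal for each library, so the p-values measure the spread between libraries, part of which may be technical.

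A cytosolic ribosome has a small subunit that reads the messenger RNA and a large subunit that joins amino acids. Each subunit is built on ribosomal RNA with a fixed set of proteins, and most of these are present once per particle, so cells make them in matched amounts. Their messenger RNAs are among the most abundant in most cells, and many start with a cytosine followed by a run of pyrimidines, the 5′ terminal oligopyrimidine (TOP) tract, through which mTOR signalling controls their translation. Ribosomal protein genes also have many processed copies elsewhere in mammalian genomes. How reads that map to several places were counted is not given in the sources used here, so each gene's level is uncertain by what its copies took or gave.

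Of 80 proteins of the cytosolic ribosome, 79 had a row and 74 were among the genes kept. Rps9, a small-subunit protein, and its copy Rps9l1 were listed at 0 counts in all 18 libraries. Rpl37a, a large-subunit protein, had 0 to 8 counts, the pseudogene Rps4x-ps1 had 0 to 7 and Rpl37a-ps1 had 0 or 1. These 5 rows are not used further. Fau and Rack1 also encode ribosomal proteins, but their symbols fall outside the naming rule. The 82 include 8 genes outside the 80: the copies Rpl3l, Rpl22l1, Rpl39l, Rpl35al1, Rpl36al, Rps27l and Rps4y2, and Rps19bp1, which encodes a protein that binds Rps19 and is not part of the ribosome.

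The start regions of 66 of the 82 genes were found in RefSeq's promoter table for the assembly GRCr8, and 16 were not. A start was taken to have a TOP-like tract where a C at the annotated first base was followed by 4 or more of C or T. This held for 22 of 66 genes (33.3%), against 2.42% of 21785 other promoters. With a wider window, a C followed by 7 or more of C or T anywhere between 30 bases before and 20 bases from the start was found in 44 of 66 (66.7%), against 15.0% of the others. A match is a description of letters near an annotated start, and the annotated first base need not be the one used in the hippocampus.

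The sequences below run from 30 bases before the annotated start through the first 20 bases of the transcript, 5′ to 3′ on the gene's strand, and capitals mark the C and the pyrimidine run where one was found. The first 5 are genes called lower in KI 3 Class V, described later.

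Rpl6 (chr12:41011671-41011720, minus strand): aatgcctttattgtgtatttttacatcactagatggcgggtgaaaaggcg
Rpl18 (chr1:105325240-105325289, plus strand): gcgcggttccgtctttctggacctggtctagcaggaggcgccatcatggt
Rpl13 (chr19:68062484-68062533, plus strand): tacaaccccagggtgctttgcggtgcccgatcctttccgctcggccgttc
Rpl36al (chr6:93392239-93392288, minus strand): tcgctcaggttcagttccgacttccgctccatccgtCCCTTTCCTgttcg
Rpsa (chr8:128728849-128728898, plus strand): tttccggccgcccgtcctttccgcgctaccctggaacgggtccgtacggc

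Of these, Rpl36al alone carried a marked run; Rpl13 and Rpsa hold the shorter run cctttcc near their starts, which is under the length searched for. The next 3 show the tract at or over the start, as in the stalk gene Rplp1, the late-joining large-subunit gene Rpl10 and the small-subunit gene Rps18.

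Rplp1 (chr8:71290853-71290902, minus strand): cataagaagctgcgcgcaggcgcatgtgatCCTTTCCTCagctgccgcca
Rpl10 (chrX:157205820-157205869, plus strand): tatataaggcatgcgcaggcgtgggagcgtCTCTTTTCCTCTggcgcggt
Rps18 (chr20:4933715-4933764, plus strand): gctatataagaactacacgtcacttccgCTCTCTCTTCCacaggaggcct

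The last 8 set genes of the standard ribosome beside the copies that bear a similar name, to show how far the start regions of each pair differ.

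Rpl3 (chr7:113507971-113508020, minus strand): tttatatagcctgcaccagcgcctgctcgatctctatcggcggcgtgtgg
Rpl3l (chr10:14258416-14258465, plus strand): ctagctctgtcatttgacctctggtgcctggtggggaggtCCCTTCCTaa
Rps27 (chr2:177964587-177964636, minus strand): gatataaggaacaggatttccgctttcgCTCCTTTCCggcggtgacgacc
Rps27l (chr8:76443628-76443677, plus strand): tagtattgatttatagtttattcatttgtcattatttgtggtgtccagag
Rpl39 (chrX:121195877-121195926, minus strand): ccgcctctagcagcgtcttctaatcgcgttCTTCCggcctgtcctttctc
Rpl39l (chr10:5966602-5966651, minus strand): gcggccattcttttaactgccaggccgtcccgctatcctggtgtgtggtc
Rps4x (chrX:71342902-71342951, minus strand): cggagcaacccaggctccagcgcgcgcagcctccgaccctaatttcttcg
Rps4y2 (chr4:183000883-183000932, plus strand): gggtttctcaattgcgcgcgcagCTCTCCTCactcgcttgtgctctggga

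Rps27 and Rpl39 had a marked run where Rps27l and Rpl39l had none. In the other pairs it was the reverse: Rpl3l and Rps4y2 had a marked run, and Rpl3 and Rps4x had none.

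Other motifs were searched in the 250 bases before the start, on either strand and allowing overlaps. GGGCGG, the core of the site bound by Sp1-type factors, was found in 57.6% of the 66 genes and 38.8% of the other promoters. CCGGAAG, the core of sites bound by ETS-family factors, was found in 25.8% and 8.96%. TATAAA was found in 12.1% of each, GCCATNTT in 7.58% and 4.18%, and CTCTTTCC in 4.55% and 2.47%.

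The summed level of the 82 genes, in CPM (read counts relative to the library total multiplied by its TMM factor), was close in the libraries of each 3 Class V group and wide apart in both sham groups. KA 3 Class V libraries summed to 24769, 24329 and 27917 CPM. KA shams summed to 18224 CPM at the lowest (KA sham 6), 23884 CPM at the median and 55765 CPM at the highest (KA sham 2). The KA 3 Class V libraries thus lay inside the range of the KA shams, which spanned 3.06-fold. KI 3 Class V libraries summed to 18067, 19088, 18369 and 22598 CPM, and KI shams to 46512, 33016, 36535 and 20192 CPM. KI sham 4 lay among the KI 3 Class V libraries, and KI sham 1, 2 and 3 lay above all of them. As means the sums were 25671 ± 1957 CPM in KA 3 Class V and 30795 ± 13689 CPM in KA sham (SD, n = 3 and 7), and 19531 ± 2089 CPM in KI 3 Class V and 34064 ± 10872 CPM in KI sham (SD, n = 4 each).

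**Figure D1:**
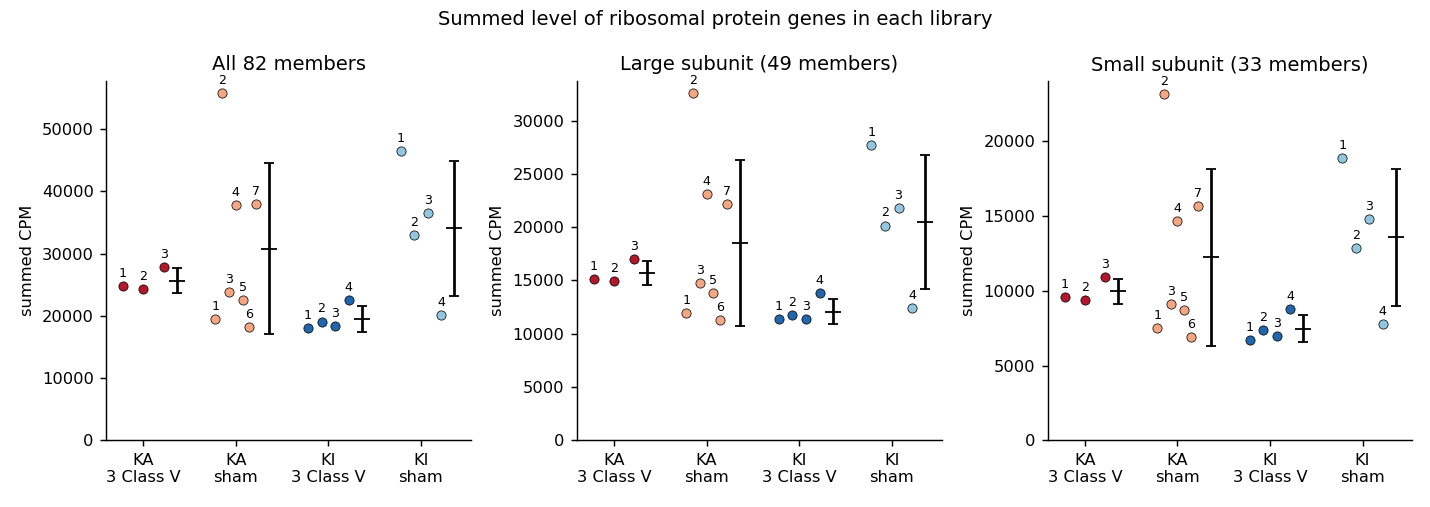
Summed level of the 82 ribosomal protein genes, and of the 49 large-subunit and 33 small-subunit genes, in each library (y axis, summed CPM). Points are libraries with their replicate number, and bars show the mean and SD of each group. KA sham 2 (55765 CPM) and KI sham 1 (46512 CPM) stand highest, and KI sham 4 (20192 CPM) lies among the KI 3 Class V libraries.

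The large and small subunits varied together from library to library. The large-subunit sum was 1.41 to 1.69 times the small-subunit sum, with the lowest ratios in KA sham 2 (1.41), KA sham 7 (1.42), KI sham 1 (1.47) and KI sham 3 (1.48). The 82 genes took 5.10% of all counts in KA sham 2, where they were highest, and 1.49% in KI 3 Class V 1, where they were lowest. Total counts per library ran from 30925368 to 49943021, so counting error is small beside these differences.

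Across the 18 libraries, the log2 CPM of the genes varied together. The median Pearson r over the 3321 pairs was 0.96, and it was 0.96 after the group means were removed, so the shared pattern lies within groups as well as between them. With the mean of the other genes of the set, 77 genes had r over 0.90 and 72 had r over 0.95. These correlations are descriptions: all genes share the same libraries and scaling. Among the highest were those of Rpl11 (r = 0.997), Rpl24 and Rps13. Rpl11, with Rpl5, is known to bind and restrain Mdm2 when ribosome assembly is disturbed.

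The genes that followed the rest least were Rps4y2 (r = 0.40), Rpl39l (r = 0.64) and Rpl3l (r = 0.67), then Rpl30 (r = 0.87) and Rpl6 (r = 0.90). Rpl3l is known as the heart and skeletal muscle counterpart of Rpl3, and Rpl39l as a copy of Rpl39 used in the mouse testis. Both had few counts. Rpl3l had 20 to 23 counts per KA 3 Class V library, 14 to 41 per KA sham, 7 to 28 per KI 3 Class V library and 17 to 29 per KI sham. Rpl39l had 9 to 26, 2 to 46, 6 to 28 and 2 to 20 counts in the same order of groups. Rps4y2, whose human namesake lies on the Y chromosome while the rat gene is on chromosome 4 of GRCr8, had 57 to 185 counts per library. At these counts a larger part of the spread is counting error than for the other genes.

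**Figure D2:**
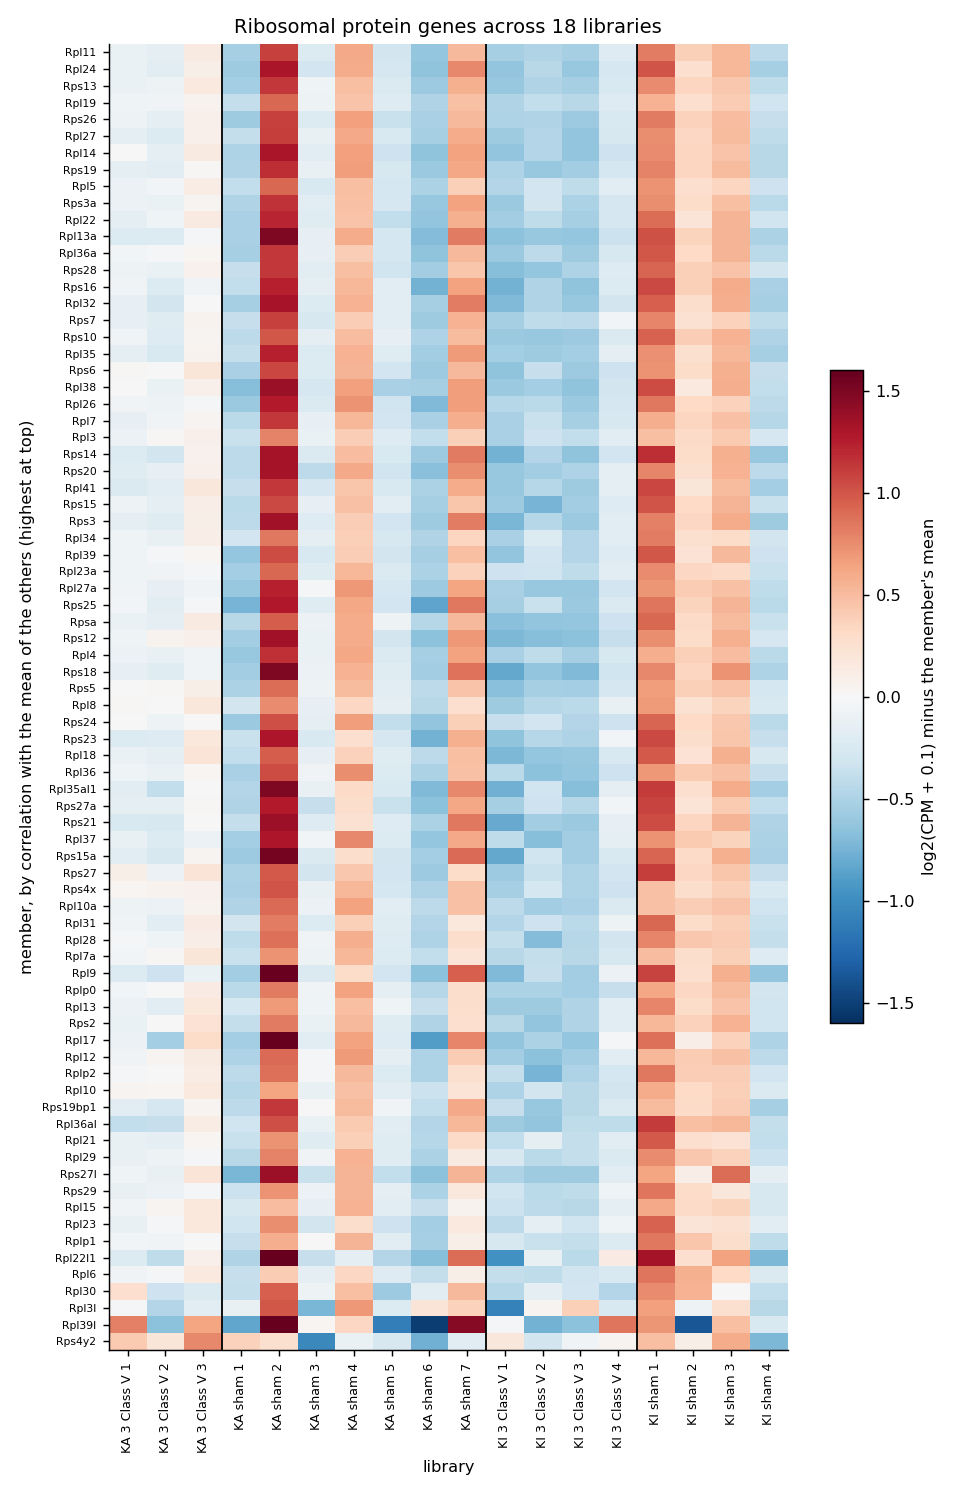
Log2(CPM + 0.1) of each of 78 of the 82 genes minus its mean over 18 libraries (colour, log2 units, with values past the bar in its end colours), with genes ordered by their correlation with the mean of the others and libraries grouped. Most genes share the colour of their column. Red columns include KA sham 2, 4 and 7 and KI sham 1 to 3, and blue ones KA sham 1, 5 and 6, KI sham 4 and KI 3 Class V. The 3 bottom rows, Rpl3l, Rpl39l and Rps4y2, depart from the colour of their columns.

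KA sham 2 and KI sham 1 set the upper end. KA sham 2 was the highest of all libraries for 69 of the 82 genes, KI sham 1 for 12, and KA 3 Class V 3 for the remaining one, Rps4y2. KA sham 2 stood at 2.47 times the median of the other KA shams for the median gene, with a range of 1.41 times (Rps4y2) to 5.98 times (Rpl39l). The excess in this library was not even: the ratio was 1.50 times for Rpl6, 3.62 times for Rpl9 and 4.27 times for Rpl22l1, and its median was 2.25 times over large-subunit genes and 2.59 times over small-subunit genes. KI sham 1 stood at 1.44 times the median of the other KI shams for the median gene, from 1.05 times for Rpl10a to 2.28 times for Rpl39l.

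The same libraries stood apart in blood-cell genes. Of a blood-cell list of 8 (hemoglobin chains, Alas2 and Slc4a1), the 7 genes with a row summed to 7037 CPM in KA sham 2 and 3535 CPM in KI sham 1. In the other libraries they summed to 393 to 2129 CPM. The part of blood-cell genes in the level of ribosomal protein genes was not tested. Markers of hippocampal pyramidal cells were present in every library, with sums from 1038 CPM in KI sham 1 to 3938 CPM in KA sham 2. Their mean log2 level, relative to the mean over all libraries, was −0.03 in KI sham 1 and 0.34 in KA sham 2. Choroid plexus markers summed to 623 CPM in KA sham 3 and 979 CPM in KI sham 4, with 14.7 to 76.4 CPM elsewhere. Ribosomal RNA-like genes took 9.80% to 16.7% of counts in KI 3 Class V 1, KA sham 4 and KI sham 2, and at most 2.04% elsewhere.

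In the kindling model all 82 genes had a negative log2 fold change, and 6 of them passed the test. The median log2 fold change was −0.82 (quartiles −0.88 and −0.68), a level in KI 3 Class V of 0.567 times that in KI sham, against a median of −0.04 over all genes tested. The 6 called genes (edgeR quasi-likelihood test, Benjamini-Hochberg adjusted p under 0.05 over 13338 genes) are 7.32% of the 82, beside 5.25% of all genes called lower in this comparison and 9.99% called in either direction. None was called higher, beside 4.74% of all genes. With an unadjusted p under 0.05, 74 genes (90.2%) were lower and none higher, beside 18.2% of all genes lower and 35.4% in either direction. Beyond the 6 called, 43 of the 82 had an edgeR adjusted p between 0.05 and 0.10. Of all genes, 13.3% were lower with an edgeR adjusted p under 0.10, called genes included. The median was −0.77 over large-subunit genes, with 5 called, and −0.84 over small-subunit genes, with 1 called. In tissue of mixed cells, fewer cells of a type and less RNA per cell cannot be told apart.

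**Figure D3:**
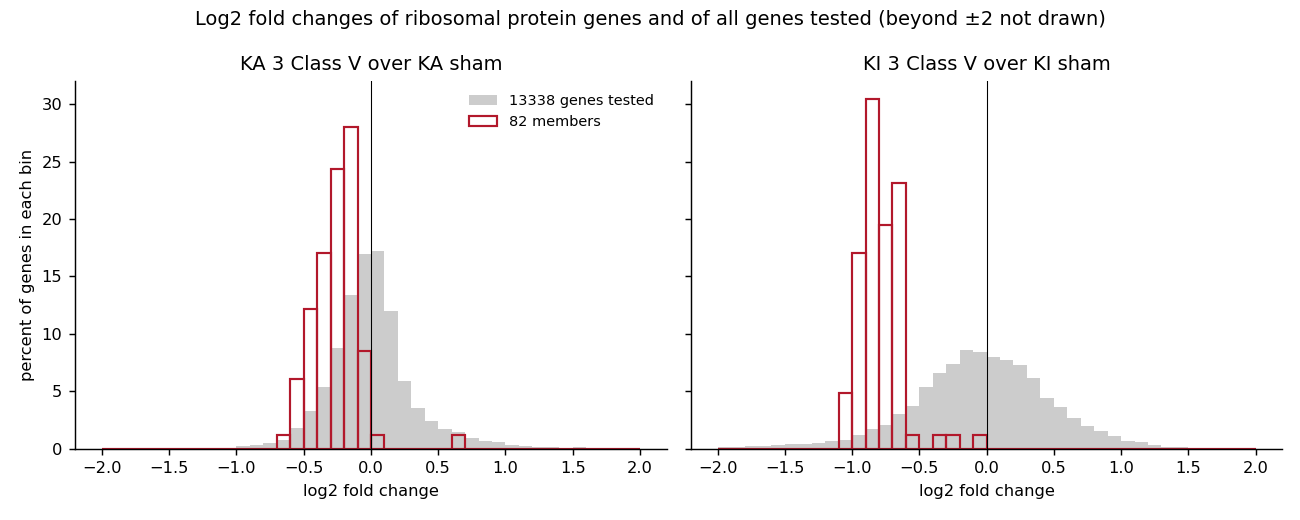
Log2 fold changes (x axis) of the 82 ribosomal protein genes (red outline) and of all 13338 genes tested (grey) as percent of genes per bin (y axis), for KA 3 Class V over KA sham (left) and KI 3 Class V over KI sham (right). In KI the 82 genes lie between −1.03 and −0.09 around a median of −0.82, and in KA between −0.60 and 0.68 around −0.25.

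The count of 6 moved with single libraries. It was 70 without KI sham 4 (17.6% of all genes then lower), 51 without KA sham 2 (9.35%), 15 without KA sham 6 (6.19%) and 12 without KA sham 1 (6.51%). It was 2 without KA sham 5, 1 without KA sham 3, KA sham 7 or any one KA 3 Class V library, and 0 without any one KI 3 Class V library or without KI sham 1, 2 or 3, with 0.06% to 5.33% of all genes lower in these 13 settings. The median kept its sign throughout, between −1.02 without KI sham 4 and −0.62 without KI sham 1. On all libraries DESeq2 called 36 of the 82 lower (10.5% of all genes) and limma-voom with quality weights called 79 (28% of all genes). Without KI sham 3 and KI sham 4 together, a setting chosen after the data were seen, 48 were called lower (13.3% of all genes).

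Among the large-subunit genes called lower were Rpl6, Rpl18, Rpl13 and Rpl36al. Rpl6 had 220.2, 217, 229 and 243 CPM in KI 3 Class V and 520.0, 424, 356 and 244 CPM in KI sham. Every KI 3 Class V library lay below every KI sham, though KI sham 4 by about 1 CPM, and the log2 fold change was −0.77 ± 0.21 (SE, edgeR adjusted p = 0.0361). Rpl36al is a copy of Rpl36a that encodes a nearly identical protein. It had 61.4, 59.0, 68.6 and 69.0 CPM in KI 3 Class V and 198, 127, 132 and 69.8 CPM in KI sham, without overlap (−1.03 ± 0.31, edgeR adjusted p = 0.0462).

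Rpl18 and Rpl13 overlapped through KI sham 4. Rpl18 had 119, 129, 129 and 167 CPM in KI 3 Class V and 388, 232, 292 and 165 CPM in KI sham (−0.98 ± 0.29, edgeR adjusted p = 0.0442). Rpl13 had 496, 496, 523 and 648 CPM in KI 3 Class V and 1254, 901, 1007 and 588 CPM in KI sham (−0.79 ± 0.23, edgeR adjusted p = 0.0447). In both, KI sham 4 was below KI 3 Class V 4 and the other 3 KI shams were above every KI 3 Class V library.

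Rpsa was the 1 small-subunit gene called lower, though all 33 had a negative log2 fold change. Its protein is part of the small subunit and is also known as a precursor of a cell-surface laminin receptor. Rpsa had 366, 378, 379.6 and 464 CPM in KI 3 Class V and 1106, 722, 831 and 454 CPM in KI sham (−0.97 ± 0.30, edgeR adjusted p = 0.0468). KI sham 4 again lay below KI 3 Class V 4. All 6 calls were kept under DESeq2, limma-voom and without KI sham 4, and none was kept with each model fitted alone.

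**Figure D4:**
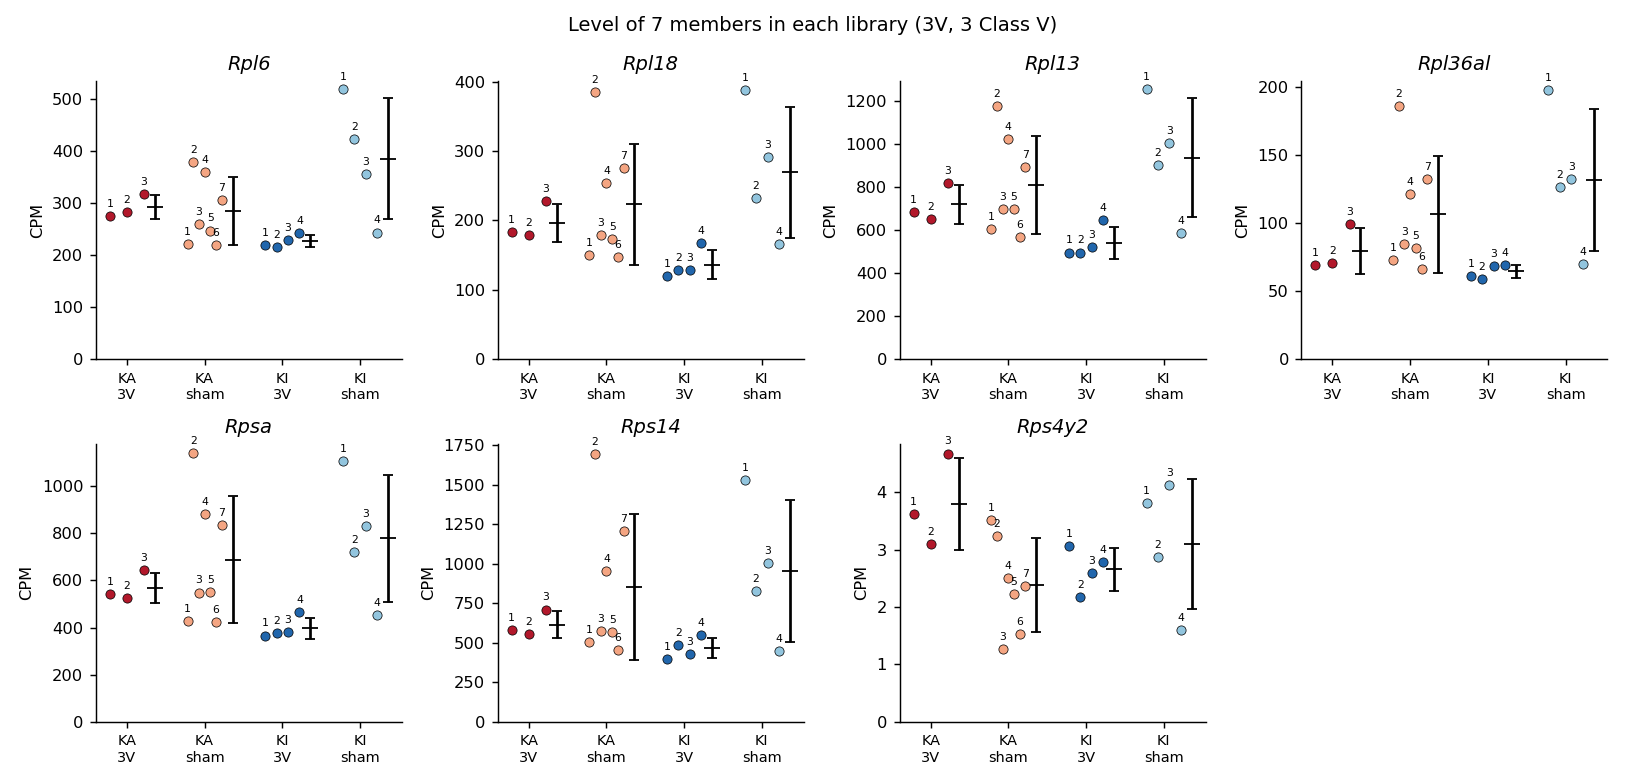
Level of 5 of the 6 genes called lower in KI 3 Class V (Rpl6, Rpl18, Rpl13, Rpl36al, Rpsa), of Rps14 and of Rps4y2 in each library (y axis, CPM), with the mean and SD of each group. KI sham 1 to 3 lie above all KI 3 Class V libraries for the first 6 genes, KI sham 4 lies beside them, and for Rps4y2 the groups are mixed.

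The lowest fold change belonged to Rps14, a small-subunit protein needed for maturation of the small subunit's RNA. Rps14 had 399.7, 487, 431 and 546 CPM in KI 3 Class V and 1529, 830.4, 1006 and 446 CPM in KI sham. Its log2 fold change was −1.03 ± 0.39 and was not called (edgeR adjusted p = 0.0792). Rps18 (−1.02), Rpl13a and Rps16 (−0.99) had fold changes of about that size and were likewise not called, with edgeR adjusted p of 0.0790, 0.0916 and 0.0739.

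Over the 82 genes the arrangement of libraries was nearly uniform. In 9 genes, among them Rpl6, Rpl7a, Rpl10, Rpl36al, Rplp0, Rps4x, Rps12 and Rps27l, every KI 3 Class V library lay below every KI sham, which also held for 8.07% of all genes. In 79 genes every KI 3 Class V library lay below at least 3 of the 4 KI shams, as in 31% of all genes. KI sham 4 was the lowest KI sham in 81 of the 82, and in 33% of all genes.

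Rps6, the small-subunit protein that S6 kinases phosphorylate, had 457, 556, 478 and 571 CPM in KI 3 Class V and 1183, 883, 1063 and 554 CPM in KI sham. Its log2 fold change was −0.84 ± 0.32 and was not called (edgeR adjusted p = 0.0789). Rps27a encodes a fusion of ubiquitin with a small-subunit protein, and had 151, 173, 159 and 211 CPM in KI 3 Class V and 463, 254, 292 and 166 CPM in KI sham (−0.76 ± 0.37, edgeR adjusted p = 0.149). In both genes KI sham 4 lay within the range of the KI 3 Class V libraries.

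The stalk genes Rplp0, Rplp1 and Rplp2 form the arm of the large subunit that recruits translation factors. Rplp0 had 511, 509.7, 499 and 565 CPM in KI 3 Class V and 1111, 915, 1033 and 594 CPM in KI sham. The groups did not overlap, and the log2 fold change of −0.81 ± 0.25 missed the threshold narrowly (edgeR adjusted p = 0.0510). Rplp2 had a log2 fold change of −0.85 ± 0.27 (edgeR adjusted p = 0.0537) and Rplp1 one of −0.66 ± 0.24 (edgeR adjusted p = 0.0751).

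Copies were set beside the genes they resemble. Log2 fold changes in KI 3 Class V were −0.90 for Rpl36a and −1.03 for Rpl36al, −0.84 for Rpl22 and −0.85 for Rpl22l1, and −0.90 for Rps27 and −0.88 for Rps27l, a gene that p53 is known to induce in human cells. Of these 6 genes, Rpl36al was the one called. The other pairs had wider gaps: −0.61 ± 0.23 for Rpl3 and −0.31 ± 0.42 for Rpl3l, −0.82 ± 0.32 for Rpl39 and −0.09 ± 0.87 for Rpl39l, and −0.65 ± 0.28 for Rps4x and −0.22 ± 0.31 for Rps4y2. The differences within pairs were not tested, and none of these 6 genes was called (edgeR adjusted p from 0.0790 to 0.947).

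In the kainic acid model 80 of 82 genes had a negative log2 fold change, and none passed the test. The median was −0.25 (quartiles −0.38 and −0.15), against −0.01 over all genes. With edgeR 0 of the 82 were called, beside 0.172% of all genes called in either direction, and 1, Rps4y2, had an unadjusted p under 0.05 (9.93% of all genes). DESeq2 called 0 (1.9% of all genes) and limma-voom with quality weights called 1, Rps4y2, higher (3.57% of all genes). In no gene did KA 3 Class V and KA sham separate, beside 2.7% of all genes with every KA 3 Class V library below every KA sham and 2.95% with every one above. The median was −0.04 without KA sham 2, the library in which the genes were highest, and 0.04 with limma-voom. It was negative in all 18 settings with 1 library left out.

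The lowest KA fold changes went with a wide spread between KA shams. Rpl9 had 388, 361 and 419 CPM in KA 3 Class V, and 288 CPM at the lowest, 385 CPM at the median and 1359 CPM at the highest in KA sham. The KA 3 Class V libraries lay around the sham median, and the log2 fold change of −0.60 ± 0.43 did not pass (edgeR adjusted p = 0.672). Rpl3l (−0.55 ± 0.41, but 0.05 with limma-voom), Rpl13a (−0.54 ± 0.40) and Rps18 (−0.54 ± 0.38) were also among the lowest. At the other end were Rpl15 (−0.01 ± 0.20), Rpl23 (−0.01 ± 0.25), Rpl10 (−0.00 ± 0.21) and Rpl6 (0.04 ± 0.20), whose signs change with the setting.

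Rps4y2 was the exception in KA. It had 3.62, 3.10 and 4.67 CPM in KA 3 Class V, and 1.26 CPM at the lowest, 2.36 CPM at the median and 3.51 CPM at the highest in KA sham. All KA 3 Class V libraries were above the sham median, but KA sham 1 and KA sham 2 lay above KA 3 Class V 2. Its log2 fold change was 0.68 ± 0.29 (edgeR adjusted p = 0.426).

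The KA change minus the KI change was positive for 80 of 82 genes, with a median of 0.54, and none was called. Rpl3l (−0.24) and Rpl39l (−0.04) were the exceptions. With edgeR 0 of the 82 were called, beside 3.8% of all genes, and 3 had an unadjusted p under 0.05 (20.5% of all genes): Rpl6 (0.80 ± 0.28, edgeR adjusted p = 0.126), Rpl10 (0.67 ± 0.30, edgeR adjusted p = 0.214) and Rpl15 (0.61 ± 0.28, edgeR adjusted p = 0.237). DESeq2 called 0 (8.37% of all genes) and limma-voom with quality weights called 75, all higher (16.8% of all genes), so the calls for this difference depended on the test.

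Between the shams of the models, 77 of 82 genes had a lower value in KA sham than in KI sham with edgeR, with a median log2 difference of −0.16. The limma-voom median was −0.44, against −0.02 over all genes. With edgeR and DESeq2 0 were called, beside 0.0075% of all genes with edgeR and 0.075% with DESeq2, and limma-voom called 1, Rpl6, lower (0.727% of all genes). With edgeR Rpl6 was also the 1 gene with an unadjusted p under 0.05, which 8.63% of all genes had (−0.44 ± 0.18, edgeR adjusted p = 0.564).

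Genes outside the set that are tied to ribosomes, translation or TOP tracts were examined as lists. Of 25 tested translation factors and other genes whose RNA is known to carry a TOP tract, 24 had a negative log2 fold change in KI. Their median was −0.46. With edgeR 0 of them were called in KI or KA, beside 9.99% and 0.172% of all genes in either direction. Fau, whose protein product includes a small-subunit protein, averaged 353 ± 42.8 CPM in KI 3 Class V and 670.2 ± 254 CPM in KI sham (log2 −0.93 ± 0.33, edgeR adjusted p = 0.0667). Rack1, a signalling scaffold on the small subunit, had a log2 fold change of −0.70 (edgeR adjusted p = 0.0599). Eef1a1, which delivers aminoacyl-tRNA, averaged 2824 ± 207 CPM in KI 3 Class V and 3879 ± 575 CPM in KI sham (−0.46 ± 0.18, edgeR adjusted p = 0.0910). The initiation factor Eif4b was the 1 with a positive value (0.06). In KA the list's median was −0.06.

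Genes of ribosome assembly and rRNA synthesis gave smaller values. Of 33 tested, 26 had a negative value in KI with a median of −0.24, and the KA median was 0.04. Again 0 were called in KI or KA, beside 9.99% and 0.172% of all genes in either direction. Ncl, which encodes nucleolin, averaged 305 ± 24.5 CPM in KI 3 Class V and 299 ± 71.3 CPM in KI sham (0.03 ± 0.15, edgeR adjusted p = 0.896).

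In the mTOR and S6 kinase pathway, which controls the translation of TOP messenger RNAs, 7 of 29 tested genes were called in KI and 0 in KA. Over all genes tested, 9.99% were called in KI and 0.172% in KA, in either direction. Mtor, the kinase itself, averaged 149 ± 11.3 CPM in KI 3 Class V and 90.1 ± 21.7 CPM in KI sham (0.72 ± 0.21, edgeR adjusted p = 0.0425). Pdpk1, a kinase upstream of S6 kinases (0.70 ± 0.17), and Depdc5, part of a complex that restrains mTOR complex 1 (0.38 ± 0.12), also rose. Eif4ebp1, a repressor of cap-dependent translation (−0.69 ± 0.20), the arginine sensor Castor1 (−0.79 ± 0.18), Myc (−0.55 ± 0.15) and the kinase Rps6ka4 (−0.55 ± 0.12) fell, and the list's median was −0.02. All 7 calls were kept with DESeq2 and limma-voom. All 7 were lost without KI 3 Class V 1, 2 or 3, where edgeR called 1 gene of the whole series higher and 8 lower. They were also lost without KI sham 3, where edgeR called 49 genes higher and 84 lower. Of the 18 settings with 1 library left out, the calls were kept in 5 (Eif4ebp1) to 14 (Castor1 and Rps6ka4).

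Of 10 tested p53 targets, Zmat3 rose in KI (0.50 ± 0.14) while Cdkn1a, the cell-cycle inhibitor p21 (−1.21 ± 0.22), and Phlda3 (−1.01 ± 0.14) fell, with edgeR adjusted p of 0.0403, 0.0210 and 0.00330 in that order. Phlda3 stayed called with any 1 library left out (edgeR adjusted p from 0.00106 to 0.0282). The calls of Zmat3 and Cdkn1a, and those given below for respiratory chain and cell-type genes in KI, were lost without KI 3 Class V 1, 2 or 3. Most were lost in more settings: they were kept in 4 (Ndufs7 and the astrocyte marker Aqp4) to 15 (Cdkn1a and the activated microglia marker Trem2) of 18. Except for Cdkn1a, Trem2 and the oligodendrocyte marker Cnp, all were also lost without KI sham 3. None of the p53 targets was called in KA. The shares of all genes called in either direction were 9.99% in KI and 0.172% in KA.

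Mitochondrial genes followed the cytosolic ribosomal protein genes across libraries. The mean log2 level of 71 mitochondrial ribosomal protein genes had r = 0.96 with that of the 82 genes over the 18 libraries, and that of 76 respiratory chain subunits had r = 0.95. The TOP list had r = 0.97 and the assembly list r = 0.74, while the mTOR list had r = −0.35 and 5 neuron markers had r = −0.83. These are descriptions, since the lists share libraries and scaling. In KI the median log2 fold change was −0.47 over the mitochondrial ribosomal genes, with 0 called, and −0.59 over the respiratory chain genes, with 3 called lower (Cox6a2, Ndufa4l2 and Ndufs7). In KA the medians were −0.24 and −0.38, with 0 called in both. Beside these counts, 5.25% of all genes were called lower in KI and 0.172% in either direction in KA.

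**Figure D5:**
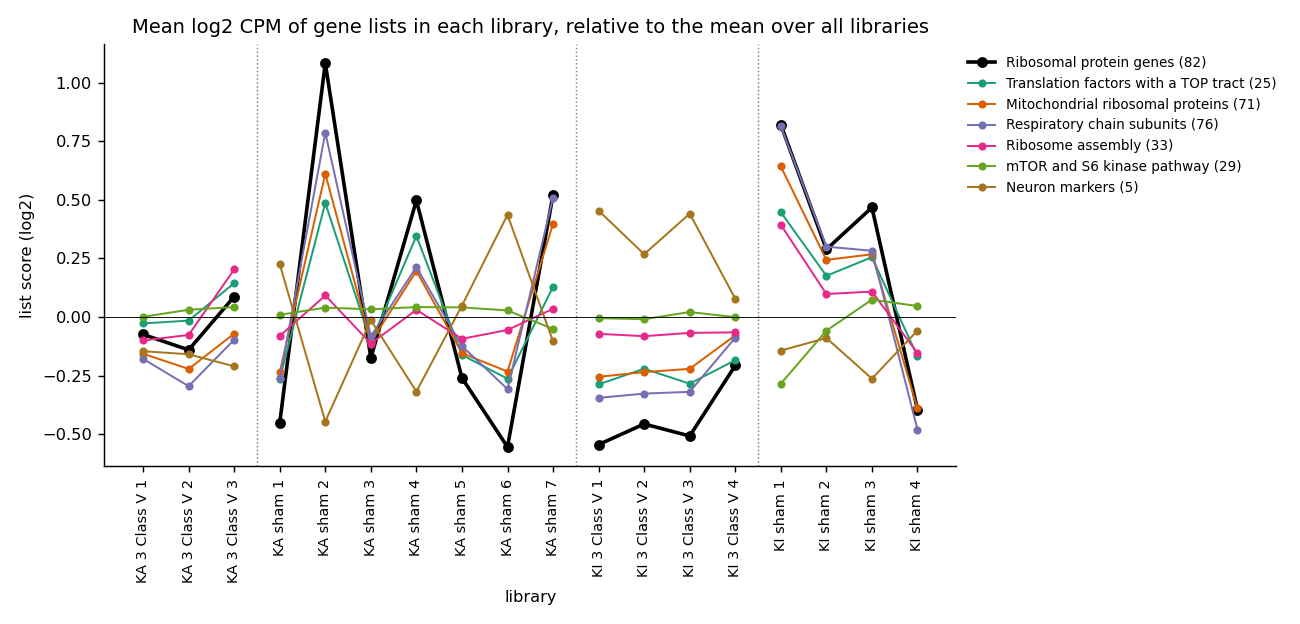
Mean log2 CPM of the genes of 7 lists in each library, relative to the mean over all libraries (y axis, log2 units); lines only join the points of a list, and the number of genes is in brackets. The TOP, mitochondrial and respiratory lists rise and fall with the 82 ribosomal protein genes, the mTOR list stays near 0 except in KI sham 1, and the neuron markers run the other way. The TOP list, labelled as translation factors, also holds other genes with a known TOP tract.

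Cell-type markers also differed in the kindling comparison. The 5 neuron markers summed to 3054 to 3890 CPM in KI 3 Class V and 2482 to 2749 CPM in KI sham, without overlap. Of the 5, 4 had a positive and 1 a negative log2 fold change. The synaptic vesicle protein gene Syt1 was called higher (1.21 ± 0.36, edgeR adjusted p = 0.0450), and in 5 of 18 settings with 1 library left out. Lists of single neuron types were mixed: 1 of 5 interneuron markers was called higher and 1 of 2 dentate granule cell markers lower. The 6 microglia markers summed to 365 to 389 CPM in KI 3 Class V and 502 to 1035 CPM in KI sham, and 3 of the 6 were called lower. The 6 markers of activated microglia and macrophages summed to 108 to 135 CPM in KI 3 Class V and 160 to 862 CPM in KI sham, and 5 were called lower. Oligodendrocyte markers summed to 9092 to 12769 CPM in KI 3 Class V and 14698 to 19798 CPM in KI sham, and 1 of 5 was called lower. In KI 1 of 5 astrocyte markers was called higher and 1 of 5 endothelial and pericyte markers lower. The 7 blood-cell genes with a row summed to 422 to 948 CPM in KI 3 Class V and 565 to 3535 CPM in KI sham, and 0 of the 5 tested were called. In the kainic acid comparison, 5 astrocyte markers summed to 10193 to 12546 CPM in KA 3 Class V and 4252 to 8039 CPM in KA sham, with 1, Gfap, called higher (1.24 ± 0.24, edgeR adjusted p = 0.0410). The activated microglia and macrophage markers summed to 612 to 876 CPM in KA 3 Class V and 95.03 to 526 CPM in KA sham, with 1, Cd74, called higher (3.05 ± 0.36, edgeR adjusted p = 0.000784). Over all genes tested, 4.74% were called higher and 5.25% lower in KI, and 0.172% in either direction in KA. The part of these cell types in the level of ribosomal protein genes was not tested in either model.

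Among 11340 genes outside the set with a mean log2 CPM of at least 1, those whose pattern over the 18 libraries was most like the mean of the 82 were Fau (r = 0.99), Phf5a (0.99), Ssr4 (0.99), Siva1 (0.99) and Serf2 (0.99). In all, 781 genes had r over 0.9, 248 had r over 0.95 and 394 had r under −0.9, so the pattern is shared by many other genes. In KI their log2 fold changes were −0.93 for Fau, −0.52 for Phf5a, −0.75 for Ssr4, −0.99 for Siva1 and −0.84 for Serf2, and none was called (edgeR adjusted p from 0.0605 to 0.0928).

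Genes with and without the tract had close medians, and the difference was not tested. The 44 genes with the wider tract had a median log2 fold change of −0.81 in KI and −0.24 in KA, and the 22 without it −0.85 and −0.28. Genes with the tract at the first base (22) had a KI median of −0.78, and the other 44 had −0.84.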

How the data were processed

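The 18 libraries were analysed from 1 table of raw counts per gene symbol, as the authors deposited it, with no normalization. The submitters' processing notes name FastQC and Trimmomatic, HISAT2, featureCounts and DESeq2, and the rat build rn6. Versions, annotation, strandedness and the handling of multi-mapping reads have no entry there. Columns were matched to samples by library name and groups taken from sample titles. Counts differed between all 36 within-group pairs of libraries beyond sampling noise (chi-square over degrees of freedom, 19.8 to 583). Each library was treated as 1 replicate. The check can find the same library counted again, but it cannot show that libraries came from separate animals. Total counts ran from 30925368 to 49943021.

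The test was edgeR 4.0.16 in R 4.3.3: TMM factors, filterByExpr, group means of all 18 libraries in 1 fit with 14 residual degrees of freedom, the robust quasi-likelihood F test, two-sided, and Benjamini-Hochberg adjustment over 13338 genes at 0.05. It was tested on simulated data in which genes varied independently, unlike the ribosomal protein genes here. In KI and KA it recovered 11.9% and 16.4% of 1.5-fold changes and 61.9% and 55.6% of 2-fold changes. For 4-fold changes it recovered 97.1% and 94.2%, and false calls were 8 and 6. Standard errors were obtained as |log2 fold change| / √F, and a prior count of 2 was added for log2 CPM. No sham library serves both models. Alternatives used DESeq2 1.42.0, limma 3.58.1, other scalings and filters, and fewer libraries. Named genes were the called genes, the 5 highest and 5 lowest by fold change, level and correlation, genes chosen by role or as copies, and the 5 most alike outside genes. A few genes that the rule names are not reported here. The genes and lists were chosen with earlier results of these data known.

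Replicate numbers were checked as pairs: same-numbered libraries' deviations from their group means correlated at −0.17 to 0.01, so the numbers were not used. Sequences and chromosomes came from RefSeq (GRCr8), which held 80 of the genes by symbol and 2 by synonym.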

Additional observations from a re-analysis of the deposited data

Results flagged for a closer look

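Among 41 named ribosomal protein genes and 2 summary values, 129 group tests asked whether 1 library lay far from the others of its group, and 5 did; chance flags about 1 in 20 groups. KI 3 Class V 4 was the highest of its group for Rpsa (464 CPM, next 379.6 CPM), Rpl11 (182 CPM, next 150.1 CPM), Rpl13a (549 CPM, next 459 CPM) and Rps27l (9.59 CPM, next 7.72 CPM). KA sham 2 was the highest of its group for Rps27l (28.4 CPM, next 15.9 CPM).

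Rps4y2 stood on opposite sides of the sham mean in the models, with every KA 3 Class V library above the KA sham mean and every KI 3 Class V library below the KI sham mean. The mean in KA 3 Class V was 1.60 times that in KA sham, and the mean in KI 3 Class V was 0.856 times that in KI sham. The test of the difference itself gave a log2 value of 0.90 ± 0.43 and did not pass (edgeR adjusted p = 0.246), and libraries of the groups overlapped in both models.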

How the results depend on the processing

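The number of genes called lower in KI, 6 as reported, was 36 with DESeq2, 79 with limma-voom, 12 with upper quartile factors (7.33% of all genes), 3 with each model fitted alone (2.91%) and 0 without the 3 libraries with most ribosomal RNA-like counts (0.12%). It was 48 without KI sham 3 and KI sham 4, a setting chosen after seeing the data, and ran from 0 to 70 when single libraries were left out; the cause was not tested. The median KI change stayed negative under all 12 alternatives and 18 single-library settings, from −1.05 to −0.62. In KA, 0 genes were called except 1 with limma-voom, and the median ran from −0.36 to 0.04. For the KA change minus the KI change the count was 75 with limma-voom and 1 without KI sham 3 and KI sham 4 (4.87% of all genes). With single libraries left out it was 0, except 1 without KI sham 4 (5.23% of all genes). For KA sham against KI sham the count was 1 with limma-voom and 1 without KI sham 3 and KI sham 4 (4.67% of all genes). With replicate number as a block, 0 ribosomal protein genes and 0 of all genes were called in KI, with a median of −0.76. In KA 0 ribosomal protein genes were called (0.0225% of all genes), with a median of −0.18. The numbers did not pair libraries, and KA sham against KI sham could not be fitted with the block.

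Some log2 fold changes, most of them near 0, changed sign. In KA, Rpl10 was 0.148 with limma-voom, 0.0791 with the ribosomal RNA-like share as covariate, 0.0479 without the 3 libraries and 0.0609 with the replicate block. Rpl15 was 0.108, 0.0933, 0.0657 and 0.0167 in the same order, Rpl23 was 0.188, 0.0332 and 0.0178 under the first 3, and Rpl3l, −0.55 as reported, was 0.0501 with limma-voom. Rpl39l in KI was 0.616 with limma-voom and 0.0149 without KI sham 3 and KI sham 4. With single libraries left out, KA values ran from −0.0889 to 0.110 for Rpl10, from −0.0882 to 0.0879 for Rpl15, from −0.109 to 0.159 for Rpl23 and from −0.0445 to 0.118 for Rpl6, and the KI value from −0.756 to 0.232 for Rpl39l.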
